A study of Mus musculus with 46 samples.

Results

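The comparison was of lung tissue from Nrf2 mutant mice with lung tissue from wild type mice, pooled over 24, 48 and 72 h of oxygen. The arrays were chosen by their titles and by time, which gave 35 of the 46 arrays of the series. The 11 arrays at 0 h were not used. RNA was hybridised to 3 array types with different probe sets, A, B and C in the titles. The study exposed mice of both genotypes to 100% oxygen, a model of oxidant injury of the lung, and the comparison asks which genes differ between the genotypes at every time of exposure.

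The mutant group is described in the labels only as mutated in Nrf2, and the control group only as wild type. Both groups breathed 100% oxygen, so no array in this comparison shows lung in room air. There were 2 arrays of a type for a genotype at a time, except that type A held a single array for wild type at 24 h. Type A therefore had 6 mutant and 5 wild type arrays, and types B and C had 6 and 6. The sources used here do not give the strain, the sex, the age, the altered part of the gene or any pooling of animals. The 2 arrays of a group are numbered 1a and 1b, and nothing says that these came from different mice. The spread behind every p-value is the spread between such arrays and may be technical.

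NRF2 is the transcription factor encoded by the gene Nfe2l2. It is held in the cytoplasm and degraded through KEAP1 while oxidant load is low. Oxidants and electrophiles release it, and with a small MAF partner it binds antioxidant response elements near genes for glutathione synthesis and conjugation, quinone and aldehyde detoxification, thioredoxin reduction and NADPH supply. In the lung it is known for its part in resistance to oxygen injury.

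A value is an intensity, the brightness of 1 probe set on 1 array. Differences are mutant minus wild type on a log2 scale after adding to each intensity the 25th percentile of its array type (77.4 for A, 121 for B and 102 for C), so the difference of a dim probe set is understated. A probe set was tested if it exceeded the 40th percentile of its type on at least 5 arrays, and it was called if its limma p-value, adjusted by Benjamini-Hochberg over all types, was under 0.05. It was separated if, at each of the 3 times, every mutant array lay on the same side of every wild type array. A difference that was called and separated is the meaning of stable below. A probe set bright in 1 genotype alone could pass the filter through the arrays of that genotype.

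Of 22975 probe sets tested, 113 were called lower in the mutant (0.492%) and 98 higher (0.427%). At an unadjusted limma p under 0.05 there were 2451 in either direction. Separation alone was more frequent: 408 probe sets had every mutant array below wild type at each time (1.78%) and 454 had every mutant array above (1.98%), and 664 of these 862 were not called. Stable differences comprised 106 lower probe sets of 84 named genes (0.461% of those tested) and 92 higher probe sets of 81 named genes (0.400%). Type A, with 1 wild type array at 24 h, gave 114 of these 198. The median difference of all tested probe sets was -0.0087, and the stable differences had a median size of 0.83. In 62 stable probe sets the difference exceeded 1 on the log2 scale, 42 of them lower and 20 higher in the mutant. In 124 of the 198, mutant and wild type arrays did not overlap even over all times. The 198 were chosen for separation at each time, which favours such a result. The share without overlap among all tested probe sets was not counted.

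Array quality measures overlapped between the genotypes. The ratio of the 3′ to the 5′ probe set of Gapdh was 0.927 to 1.54 in mutant arrays and 0.858 to 1.41 in wild type arrays. Arrays of a group correlated with r of 0.957 to 0.971 for type A, 0.943 to 0.957 for type B and 0.898 to 0.922 for type C, as a description across probe sets. Type C, where replicates agreed least, gave 21 of the 211 calls against 117 on type A. The summed intensity of 13 neutrophil markers on type A was 11048 to 29839 in mutant arrays and 14912 to 28472 in wild type arrays. The medians of these sums were 13971 and 25891, so the overlap of the ranges does not mean like levels. Neutrophil differences at each time are given below. The sum of 14 macrophage markers was 41054 to 57962 (median 43481) in mutant and 43789 to 56441 (median 50747) in wild type arrays. Alveolar type 2 markers summed to 58212 to 104143 and 58534 to 79529, so lung epithelial genes were bright in both genotypes.

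Nfe2l2 itself checks the labels. Its probe set (92562_at, type A) gave 424, 303, 388, 404, 376 and 318 on the mutant arrays in order of time, and 3425, 3338, 4488, 3319 and 4231 on the wild type arrays. All mutant arrays lay far below all wild type arrays. The mean was 369 ± 48.4 (SD, n = 6) in the mutant and 3760 ± 556 (SD, n = 5) in wild type, a log2 difference of -3.09 ± 0.13 (SE, limma adjusted p = 2.9e-07). The difference was -3.00 at 24 h, -3.06 at 48 h and -3.18 at 72 h. The mutant mean lay above the 40th percentile of type A, which was 193, and the sources used here do not say where the probe set lies relative to the altered part of the gene.

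**Figure D1:**
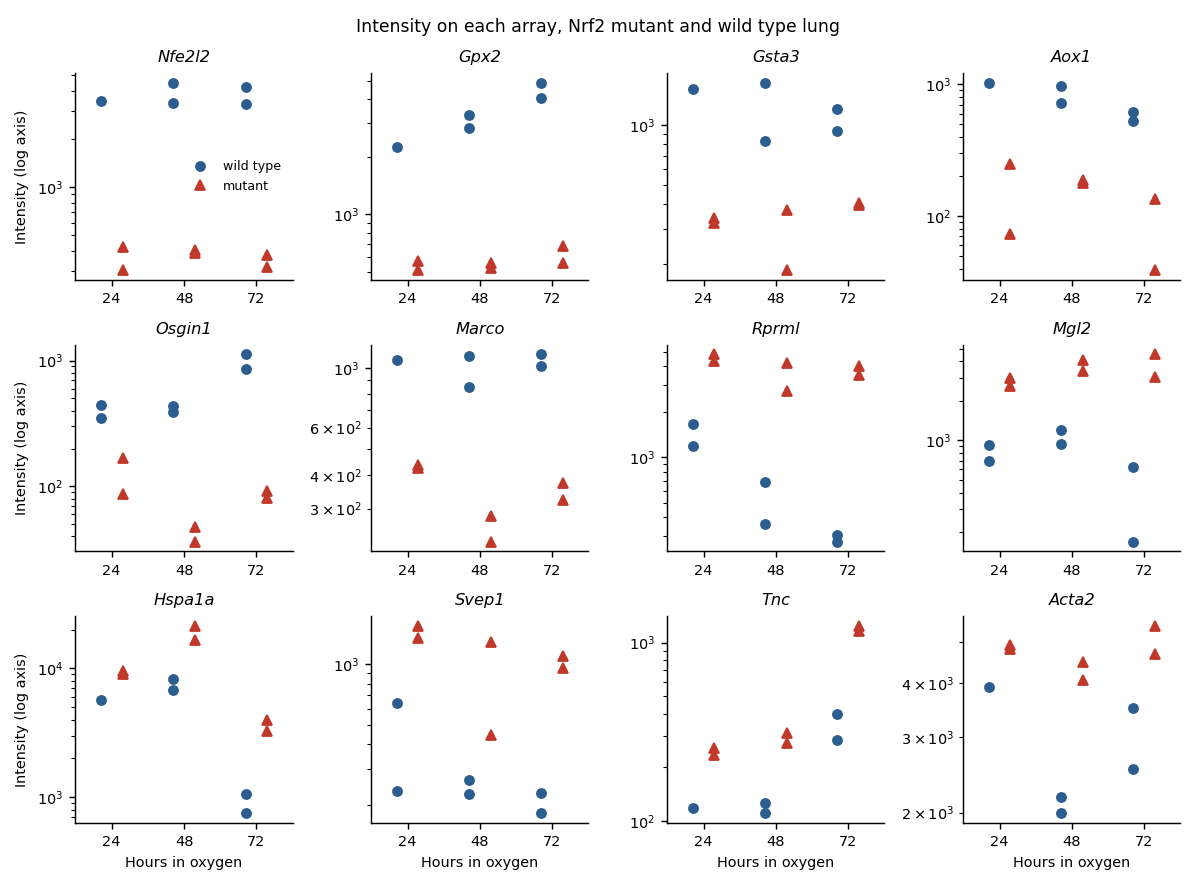
Intensity (log axis) of 12 genes on each array, by hours in oxygen, with wild type as circles and the mutant as triangles. Each point is 1 array; wild type at 24 h has 1 point for genes on type A. The mutant points lie below wild type for Nfe2l2, Gpx2, Gsta3, Aox1, Osgin1 and Marco and above it for the other genes at each time.

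Lower levels in the mutant were called for Gpx2 and for 9 glutathione transferase genes. The epithelial glutathione peroxidase Gpx2 (99810_at, type A) gave 570, 510, 555, 525, 558 and 686 on the mutant arrays against 2259 in wild type at 24 h, 3296 and 2842 at 48 h and 4900 and 4085 at 72 h. The mutant arrays stayed in a narrow range while wild type was highest at 72 h. The log2 difference was -2.38 ± 0.14 (SE, limma adjusted p = 3.3e-06), and -1.92, -2.35 and -2.71 at the successive times. The test of a difference between times did not reach its threshold (adjusted p = 0.49). Gpx2 was the 1 called member among 11 tested genes for glutathione peroxidases, superoxide dismutases and catalase, whose median was -0.18.

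Of 19 tested genes for glutathione transferases, the enzymes that attach glutathione to electrophiles, 9 were called lower by limma and 0 higher, and the median difference was -0.59. At an unadjusted p under 0.05 these counts were 14 and 0, beside 2451 of all 22975 tested probe sets in either direction. Over all 12261 tested genes, each represented by its brightest probe set, 71 were lower (0.579%), 68 were higher (0.555%) and the median was -0.0096. Gsta3 (93015_at) gave 343, 321, 186, 374, 406 and 398 in the mutant against 1528, 1636, 835, 938 and 1209 in wild type, without overlap. Its difference was -1.66 ± 0.20 (SE, limma adjusted p = 0.0022). Gsta2 gave 993 and 949 in the mutant at 24 h, but 309 to 463 at the later times, while wild type held 1273 to 1569 throughout. Its difference was thus -0.41 at 24 h and -1.71 and -1.79 later (-1.42 ± 0.20 over the times, limma adjusted p = 0.0056), although the difference between times was not called (adjusted p = 0.20).

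The other called transferases fell by smaller amounts. Gstp1, the pi class enzyme, was given by a bright probe set, with 5907 to 7310 in the mutant and 10064 to 13522 in wild type (-0.84 ± 0.12, limma adjusted p = 0.0048). Gstm3 had a difference of -0.72 ± 0.11 (limma adjusted p = 0.01), and its dimmer probe set -0.05 without a call. The remaining 5 called members, named here to complete the list, were Gsta4, the microsomal Mgst1, Gstz1, Gstm1 and Gsto1, with differences from -1.20 to -0.59. The brightest Gstm1 probe set was lower (-0.62), as was a dimmer one of type C (-0.80), while 3 others gave -0.87, 0.09 and 0.20 without a call. Alpha and mu class transferases have near-identical copies, and how far each probe set separates them was not tested. The count of 9 was 5 without the mutant 72 h replicate 1a or without the wild type 72 h replicate 1b, 5 without the 24 h arrays, 2 without 48 h and 1 without 72 h.

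Among 11 genes for glutathione synthesis and cystine uptake, 1 was called lower and the median was -0.21. Gclc, the catalytic subunit of glutamate-cysteine ligase, gave 1021 to 1651 in the mutant, whereas wild type had 1850 at 24 h, 2502 and 2618 at 48 h and 4688 and 6032 at 72 h. The difference was -1.23 ± 0.24 (limma adjusted p = 0.035), and it kept its call in 11 of 24 alternative settings. Gclm, the modifier subunit, missed the threshold on its brightest probe set (-1.01 ± 0.22, limma adjusted p = 0.056) and passed it on a dimmer probe set of type B (-0.68). Another Gclm probe set of type B gave -0.19 without a call. Slc7a11, the cystine transporter, gave 195 to 329 in the mutant at all times but 354 and 346, then 472 and 465, then 1646 and 1642 in wild type. Its pooled difference was not called (-1.07 ± 0.27, limma adjusted p = 0.10), and its difference varied between times (-0.24, -0.67 and -2.32; adjusted p of the F test = 0.026).

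Enzymes that clear quinones, carbonyls and aldehydes had 7 of 21 tested members called lower by limma and 0 higher, with a median of -0.24. At an unadjusted p under 0.05, 9 were lower and 1 higher, beside 2451 of all 22975 tested probe sets in either direction. Aox1, an aldehyde oxidase (104011_at), gave 72.8, 250, 177, 186, 134 and 38.8 in the mutant and 1030, 977, 727, 525 and 612 in wild type, without overlap (-2.03 ± 0.21, limma adjusted p = 0.00056). Its mutant mean lay under the 40th percentile of its type, 193. Only 250 of its mutant values exceeded that filter, so the probe set passed through its wild type arrays. Aox3, another aldehyde oxidase, fell over time in both genotypes, from 5190 and 4115 to 1446 and 1487 in wild type and from 1985 and 1780 to 589 and 423 in the mutant. The groups overlapped over all arrays but not at any time, and the difference was -1.25, -1.74 and -1.35 at the successive times (-1.45 ± 0.12, limma adjusted p = 3.2e-05).

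Aldh1a7, an aldehyde dehydrogenase, was lower by -1.31 ± 0.16 (limma adjusted p = 0.002), and the aldose reductase family member Akr1b8 by -0.88 ± 0.12 (limma adjusted p = 0.0048). The other 3 called members, named to complete the list, were Cbr3, Aldh3a1 and Adh7. Cbr3 was called but not separated at every time. The count of 7 was 4 without the mutant 48 h replicate 1a, the mutant 72 h replicate 1b, the wild type 48 h replicate 1a or the wild type 72 h replicate 1a, 4 without 48 h and 3 without 72 h.

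Nqo1, the quinone reductase most often used as a readout of NRF2, was not among the tested genes, since both of its probe sets exceeded the 40th percentile on fewer than 5 arrays. Its probe set 94350_f_at gave a lowest value of 54.9, a median of 72.3 and a highest of 108 in the mutant, and 146, 220 and 296 in wild type. Its probe set 94351_r_at gave 8.25, 14.6 and 20.6 in the mutant and 127, 169 and 452 in wild type. Neither overlapped, and without the filter both were lower, by -0.94 ± 0.15 (limma adjusted p = 0.020) and -1.69 ± 0.21 (limma adjusted p = 0.0062). A dim probe set of Srxn1, which encodes sulfiredoxin, behaved alike without the filter (-1.69 ± 0.27, limma adjusted p = 0.025; highest mutant value 125, lowest wild type value 180), but its brighter probe set, the one tested, showed 0.04.

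Carboxylesterases, which hydrolyse esters and amides, had 3 called lower among 12 tested genes for these enzymes and for export pumps by limma (median -0.28, 0 higher). At an unadjusted p under 0.05, 6 were lower and 0 higher, beside 2451 of all 22975 tested probe sets in either direction. Ces1f (109158_at, type B) gave 14.99, 23.8, 70.4, 15.1, 39.3 and 23.5 in the mutant and 908, 853, 574, 634, 497 and 674 in wild type. The mutant values were at the dim end of the array, and the difference of -2.41 ± 0.14 (limma adjusted p = 1.7e-06) was accompanied by -1.82 on the gene's second probe set. Both Ces1f probe sets passed the filter through the 6 wild type arrays alone. Ces1d (-1.23 ± 0.10, limma adjusted p = 0.0001) and Ces1e (-0.94 ± 0.10, limma adjusted p = 0.00055) were also lower, each with a narrow spread of differences over the times. A type C probe set of Ces1d gave 0.42 without a call. The pump Abcc3 had -0.61 ± 0.18 and was not called (limma adjusted p = 0.20).

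The list of thioredoxin, peroxiredoxin and other redox genes, with Osgin1, had 2 of 15 tested genes called lower by limma and 0 higher (median -0.03). As for the other lists, its members were chosen with earlier results of these data known. The counts were the same, 2 and 0, at an unadjusted p under 0.05. Of all 22975 tested probe sets 2451 passed that unadjusted p in either direction, a share not far from 2 of 15. Txnrd1, the cytosolic thioredoxin reductase, stood at 927 to 1359 in the mutant, against 1525, then 2015 and 2340, then 3800 and 4699 in wild type (-1.21 ± 0.17, limma adjusted p = 0.0048). Osgin1, an oxidative stress-induced growth inhibitor, gave 36.3 to 168 in the mutant and 353 to 1127 in wild type (-1.73 ± 0.19, limma adjusted p = 0.00047). Its probe set passed the filter, 264 on type B, through wild type arrays alone. For Txnrd1 and Osgin1 the wild type arrays were highest at 72 h. Of 10 genes that supply NADPH, Me1, malic enzyme, was called lower (-0.72 ± 0.12, limma adjusted p = 0.017). The median of that list was -0.27. Another Me1 probe set gave -0.36 without a call.

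Other genes often listed with NRF2 did not pass the test. Hmox1, heme oxygenase, averaged 4158 ± 872 (SD, n = 6) in the mutant and 5573 ± 1829 (SD, n = 5) in wild type (-0.33 ± 0.15, limma adjusted p = 0.48). Catalase gave -0.65 ± 0.18 (Cat, limma adjusted p = 0.15). The mitochondrial superoxide dismutase Sod2 gave -0.27 ± 0.11 (limma adjusted p = 0.41). The metallothioneins Mt1 and Mt2 gave -0.02 ± 0.16 and 0.01 ± 0.12 (limma adjusted p = 0.99 for both). In the heme and iron list 0 of 12 genes were called by limma in either direction by their brightest probe set, and 3 were lower and 0 higher at an unadjusted p under 0.05. Of all 22975 tested probe sets 2451 passed that unadjusted p in either direction. A dimmer probe set of Blvrb, biliverdin reductase B, was stable at -0.89. Mafg, a small MAF partner of NRF2, was lower (-0.49 ± 0.10, limma adjusted p = 0.048), and Pparg was lower (-0.56 ± 0.12, limma adjusted p = 0.046). These 2 kept their calls in 8 of 24 and 4 of 23 alternative settings. Other Mafg probe sets gave -0.15 and -0.31 without a call.

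**Figure D2:**
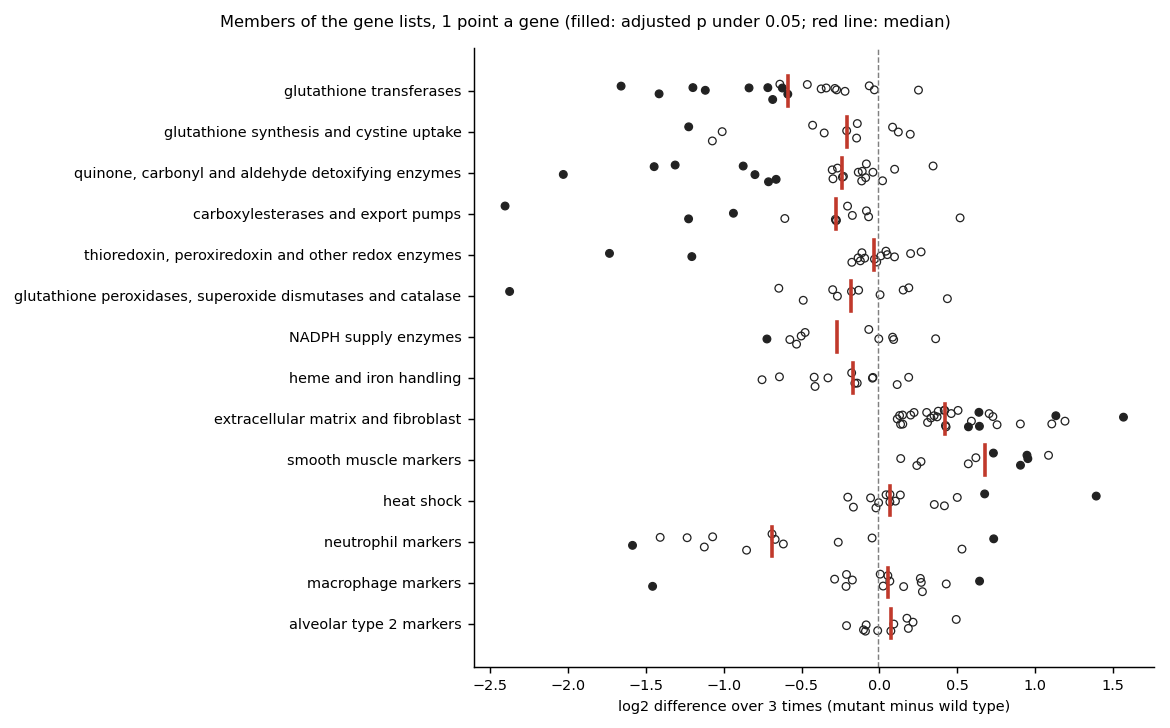
Difference of each tested gene (x axis, log2, mutant minus wild type over the 3 times) in 14 gene lists (y axis). Each point is 1 gene by its brightest probe set, filled where called, the red line is the median of the list and the dashed line the median of all tested genes. Filled points of the glutathione transferases lie to the left of the dashed line, and those of the matrix and smooth muscle lists to the right.

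The element that NRF2 binds has the core TGACNNNGC. The letters were searched on both strands in the 250 bases before each RefSeq start (GRCm38.p6). Of 83 stable lower genes other than Nfe2l2, 66 had a window, and 19 of them held a match (28.8%), against 8 of 55 stable higher genes (14.5%), 1359 of 9795 tested genes (13.9%) and 3112 of all 27025 genes (11.5%). In 100 bases the shares were 13.6%, 10.9%, 6.96% and 5.50%. A match is a run of letters and not a measured binding site, and antioxidant response elements can lie outside these windows. Genes differ in their number of windows, with a mean of 1.26 for the lower genes and 1.28 for the tested genes. The core overlaps the AP-1 motif TGACTCA where its variable letters allow it.

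Stretches around the match are given for Gsta3, Mgst1 and Gclm of the glutathione lists and for Mafg, then for Pir, whose core overlaps AP-1, and for Vnn3, which was higher in the mutant. Capitals mark the match, and each stretch is 5′ to 3′ along the gene and ends before its start.
Gsta3, chr1:21240439-21240497, plus strand, match on the gene's strand: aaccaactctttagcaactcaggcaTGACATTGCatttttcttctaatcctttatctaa
Mgst1, chr6:138140446-138140504, plus strand, match on the opposite strand: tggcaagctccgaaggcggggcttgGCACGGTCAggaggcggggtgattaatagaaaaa
Gclm, chr3:122245398-122245456, plus strand, match on the opposite strand: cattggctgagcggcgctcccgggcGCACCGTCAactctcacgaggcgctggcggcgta
Mafg, chr11:120633736-120633794, minus strand, match on the opposite strand: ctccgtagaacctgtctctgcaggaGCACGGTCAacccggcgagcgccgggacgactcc
Pir, chrX:164269192-164269250, plus strand, match on the opposite strand: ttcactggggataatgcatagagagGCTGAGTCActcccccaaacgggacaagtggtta
Vnn3, chr10:23851355-23851413, plus strand, match on the opposite strand: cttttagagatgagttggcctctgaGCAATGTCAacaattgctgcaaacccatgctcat

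In the Pir stretch the match read on the opposite strand is TGACTCAGC, which contains the AP-1 motif. Pir, which encodes the iron-binding protein pirin, was lower by -0.91, and Mgst1 by -1.12. Vnn3, with a match of the same core, was higher (1.42 ± 0.21, limma adjusted p = 0.0074), so a match was found beside genes that differed in either direction.

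Several of the largest stable falls were in genes outside the antioxidant lists. Xaf1, a partner of the apoptosis inhibitor XIAP and an interferon-inducible gene (129005_at, type C), gave 397, 91.6, 125, 110, 83.4 and 118 in the mutant against 10002, 9207, 3398, 4491, 6894 and 7756 in wild type. Its difference of -4.78 ± 0.24 (limma adjusted p = 1.7e-06) was the largest of the stable falls. Of its mutant values only 397 exceeded the filter, 204 on type C, so the probe set passed through its wild type arrays. The interferon list as a whole had 1 of 18 genes called lower, Xaf1 itself, 0 higher and a median of -0.16. Marco, a scavenger receptor of alveolar macrophages, gave 425, 437, 282, 226, 324 and 375 in the mutant and 1074, 1105, 853, 1020 and 1126 in wild type (-1.46 ± 0.12, limma adjusted p = 9.7e-05). It was the called fall among 15 tested macrophage markers, whose median was 0.05 and among which C1qb, a complement component, was called higher (0.64 ± 0.13, limma adjusted p = 0.041). C1qb kept its call in 8 of 24 alternative settings, and its other probe set gave -0.06 without a call. In bulk tissue, fewer cells of a type and less RNA per cell cannot be told apart.

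The airway secretory gene Scgb1c1 fell in both genotypes, from 2029 and 1986 at 24 h to 633 and 797 at 72 h in wild type and from 780 and 602 to 157 and 77.7 in the mutant. Its genotype difference was -1.45 ± 0.15 (limma adjusted p = 0.00039). The club cell marker Scgb1a1 (0.23 ± 0.16, limma adjusted p = 0.68) and the type 2 cell marker Sftpc (0.49 ± 0.16, limma adjusted p = 0.25) were not called. Utf1 (-1.55 ± 0.24, limma adjusted p = 0.01), Nek4 (-1.50 ± 0.28, limma adjusted p = 0.031) and Cdc23 (-1.49 ± 0.25, limma adjusted p = 0.012) completed the 15 largest falls with 1 gene symbol, together with Cwc22 and Ngp, which are described below. Other probe sets of all 3 genes were not called, at -0.12 for Utf1, -0.23 for Nek4 and 0.10, -0.13 and 0.05 for Cdc23, of which the one at -0.13 had means of 5333 and 5985. Nek4 kept its call in 9 of 24 alternative settings. Among stable probe sets without a single symbol, the largest falls were those of 102847_s_at (-2.60), 102348_at (-2.31), 105343_at (-2.29) and 93833_s_at (-1.87).

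The stable rises were led by genes with no shared list. Rprml, a relative of the p53-induced arrest gene Reprimo (139250_at, type C), gave 4833, 4357, 2741, 4216, 3525 and 4033 in the mutant. In wild type it gave 1662 and 1195 at 24 h, 360 and 682 at 48 h and 275 and 307 at 72 h, so the difference was 1.63, 2.54 and 3.30 at the successive times (2.49 ± 0.26 pooled, limma adjusted p = 0.00074). Mgl2, a galactose-binding lectin of macrophages and dendritic cells, gave 2605 to 4537 in the mutant and 169 to 1190 in wild type (2.17 ± 0.30, limma adjusted p = 0.0048). The related lectin gene Clec10a was a stable fall (-0.52), a pair named after their values were seen. The genes are close copies, and how far the probe sets tell them apart was not tested. Plekhg2 (1.69 ± 0.22, limma adjusted p = 0.0023) and Zfp979 (1.65 ± 0.21, limma adjusted p = 0.003) followed among probe sets with 1 symbol, and 102234_at, without one, rose by 1.75.

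Hspa1a, an inducible HSP70, gave 8978 and 9495 in the mutant against 5672 in wild type at 24 h, 21573 and 16598 against 8349 and 6788 at 48 h, and 3969 and 3277 against 1049 and 749 at 72 h. The levels moved with time in both genotypes, and the mutant was above wild type at each time (1.39 ± 0.19, limma adjusted p = 0.0039). The near-identical Hspa1b was also higher (0.68 ± 0.13, limma adjusted p = 0.031; called in 12 of 24 alternative settings), and how much of either signal came from the other's transcript was not tested. These were the called members among 15 heat shock genes, whose median was 0.07. Of 11 metallothionein and acute phase genes, Socs3, a feedback inhibitor of cytokine signalling (0.90 ± 0.12, limma adjusted p = 0.003), and Serpina3n, a protease inhibitor (0.97 ± 0.14, limma adjusted p = 0.007), were called higher. Other Socs3 probe sets gave 0.35 and 0.39 without a call.

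F7, coagulation factor VII, gave 451 to 960 in the mutant and 170 to 309 in wild type (1.21 ± 0.17, limma adjusted p = 0.0056). A brighter F7 probe set, with means of 3576 and 2929, gave 0.23 without a call (limma adjusted p = 0.66). Psca, a surface antigen of epithelia, gave 498 to 1682 and 148 to 487 (1.33 ± 0.14, limma adjusted p = 0.00055). Alox15, which oxygenates polyunsaturated fatty acids, gave 350 to 693 and 119 to 243 (1.31 ± 0.19, limma adjusted p = 0.0058). Tnfsf9, the ligand of 4-1BB, rose by 1.26 ± 0.21 (limma adjusted p = 0.014) with overlap over all arrays, since both genotypes were brightest at 72 h. Map1s (1.33 ± 0.24, limma adjusted p = 0.021), Dlat (1.14 ± 0.24, limma adjusted p = 0.048) and Hat1 (1.13 ± 0.19, limma adjusted p = 0.015) closed the 15 largest rises with 1 gene symbol. Dlat kept its call in 5 of 24 alternative settings and Map1s in 14 of 23. A second Hat1 probe set gave -0.08 and 2 others of Dlat gave 0.15 and -0.23, none of them called.

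In the mutant, 4 smooth muscle markers and 5 matrix genes were called higher by limma. Of 10 smooth muscle markers, 0 were called lower, 10 of 10 were above 0 and the median was 0.68. Over all 12261 tested genes, 5863 were above 0. At an unadjusted p under 0.05, 7 smooth muscle markers were higher and 0 lower, beside 2451 of all 22975 tested probe sets in either direction. Myh11, smooth muscle myosin, gave 2069 and 2357 against 1062 at 24 h, 1233 and 1054 against 731 and 731 at 48 h, and 1489 and 1501 against 599 and 656 at 72 h (0.91 ± 0.12, limma adjusted p = 0.0039). Tagln (0.95 ± 0.17, limma adjusted p = 0.021), Cnn1 (0.95 ± 0.15, limma adjusted p = 0.0094) and Acta2 (0.73 ± 0.14, limma adjusted p = 0.03), which encode transgelin, calponin and smooth muscle actin, were the other called members. The summed intensity of 9 of these markers on type A was 21798 to 29191 in the mutant and 13500 to 19828 in wild type, without overlap. The sum is made of the same genes, so it is no separate result. How often sums of other gene sets lack overlap was not counted. A dim type C probe set of Acta2 gave -0.41 and a type B probe set of Myh11 gave 0.20, both without a call. Acta2 kept its call in 13 of 24 alternative settings and Tagln in 14 of 24. The count of 4 was 2 without any one of 6 samples, namely the mutant 48 h replicate 1a, either mutant 72 h replicate, either wild type 48 h replicate and the wild type 72 h replicate 1a, 1 without 48 h and 0 without 72 h.

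Of 31 extracellular matrix and fibroblast genes, 5 were called higher by limma and 0 lower, and 31 of 31 were above 0 with a median of 0.43. Over all 12261 tested genes, 5863 were above 0. At an unadjusted p under 0.05, 22 matrix genes were higher and 0 lower, beside 2451 of all 22975 tested probe sets in either direction. The median of the matrix list was 0.03 at 24 h, 0.59 at 48 h and 0.60 at 72 h. Tnc, tenascin C, a matrix protein of injured tissue, gave 258 and 234 against 119 at 24 h, 275 and 311 against 111 and 126 at 48 h, and 1244 and 1164 against 285 and 398 at 72 h (1.13 ± 0.15, limma adjusted p = 0.004). Svep1, a large adhesion protein, gave 446 to 1556 in the mutant and 181 to 640 in wild type (1.57 ± 0.22, limma adjusted p = 0.0039). Col6a3 (0.64 ± 0.12, limma adjusted p = 0.034), Fbln1 (0.64 ± 0.13, limma adjusted p = 0.046) and Col6a1, named to complete the list, were the other called members. Fbln1 kept its call in 6 of 24 alternative settings and Col6a3 in 13 of 24. Other probe sets of Col6a3 (0.43), Fbln1 (0.76 and 0.28) and Col6a1 (0.55) were not called. The smooth muscle markers had median differences of 0.31, 0.50 and 0.83 at 24, 48 and 72 h, and their part in the matrix result was not tested. Leaving out 1 sample moved the count of 5 to between 2 and 10, with 2 without the mutant 24 h replicate 1b, either mutant 48 h replicate, the mutant 72 h replicate 1a, the wild type 48 h replicate 1b or the wild type 72 h replicate 1b, 3 without the mutant 24 h replicate 1a, the mutant 72 h replicate 1b, the wild type 48 h replicate 1a or the wild type 72 h replicate 1a, and 10 without the wild type 24 h replicate 1b. The count was 8 without the 24 h arrays, 1 without 48 h and 0 without 72 h, 8 with equal weight per time, 2 without the filter, and 3 with a floor in place of the added value or a filter on 2 arrays.

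The sizes of the stable differences at the 3 times were then compared. The 106 lower probe sets had medians of -0.78, -0.79 and -1.10 at 24, 48 and 72 h, and the 92 higher ones 0.78, 0.75 and 0.80. The difference was largest at 72 h in 56 lower and 42 higher probe sets, at 48 h in 19 and 20 and at 24 h in 31 and 30. The smallest of the 3 differences was in the median 52.4% of the largest. At 24 h a type A difference rests on 2 mutant arrays and 1 wild type array.

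**Figure D3:**
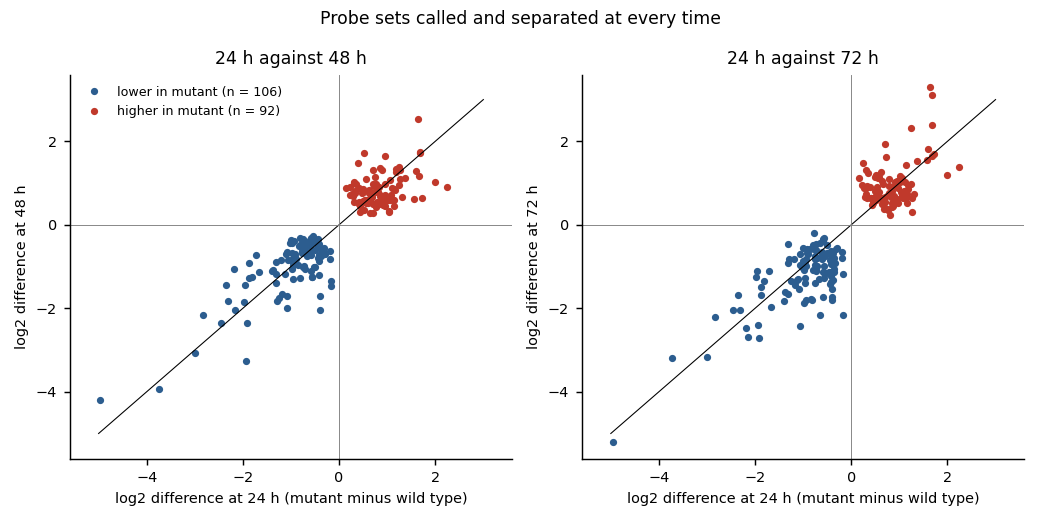
Difference at 48 h (left) and 72 h (right) against the difference at 24 h, in log2 units, for the 106 lower and 92 higher stable probe sets, with the line of equality. Each point is 1 probe set; that a probe set keeps its sign follows from how the probe sets were chosen, and the lower points have medians of -0.79 at 48 h and -1.10 at 72 h.

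A genotype by time F test called 54 probe sets (0.235%), of which 1 was stable. The stable one was Itga4, an integrin of leukocytes, lower in the mutant by -0.17, -1.48 and -2.16 at the successive times (adjusted p of the F test = 0.041). At an unadjusted p of the F test under 0.05 there were 36 of the 198 stable probe sets (18.2%), against 10.2% of all tested. Few calls thus do not mean that stable differences were equal in size over the times. The 6 probe sets of 1 symbol with the smallest p were S100a8, S100a9, Il1r2, 2 of Csf3r and Fam172a. S100a8, a calcium-binding protein of neutrophils, gave 11887 and 10277 in the mutant against 4565 in wild type at 24 h, but 1635 and 1561 against 9822 and 9647 at 48 h and 2079 and 2151 against 9256 and 8710 at 72 h. Its genotype difference was 1.26, -2.55 and -2.05 (adjusted p of the F test = 0.0008), and its pooled difference was not called (-1.41 ± 0.46, limma adjusted p = 0.24).

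Other neutrophil genes moved alike, above wild type at 24 h and below it later. Csf3r, the receptor of granulocyte colony-stimulating factor, gave 2386 and 2629 against 1284 at 24 h, 363 and 445 against 2451 and 2340 at 48 h and 896 and 867 against 1909 and 2069 at 72 h. Il1r2, a decoy receptor of interleukin 1, had differences of 1.59, -1.88 and -0.41, and S100a9 of 1.19, -2.34 and -1.75. Of 13 neutrophil markers 5 were called by the F test, against 33 of all 12261 tested genes. The list's median difference was 0.92 at 24 h, -1.77 at 48 h and -0.93 at 72 h. The wild type value of these type A probe sets at 24 h is that of 1 array, the replicate 1b. Without that sample type A has no wild type array at 24 h, and its F test compares only 48 h with 72 h. That setting therefore cannot check the differences at 24 h. On leaving out any other single sample the F test called fewer than 54. The counts ran from 17, without the mutant 24 h replicate 1a or the wild type 48 h replicate 1a, to 37, without the mutant 72 h replicate 1b. Within the list, Ngp, a granule protein of immature neutrophils, was a stable fall (-1.59 ± 0.25, limma adjusted p = 0.0094), with 437 on 1 mutant array at 48 h and 58.6 to 141 on the other mutant arrays against 452 to 713 in wild type. Those other mutant values lay under the type A filter of 193, so Ngp passed through its wild type arrays. Ltf, lactoferrin, was a stable rise (0.73 ± 0.14, limma adjusted p = 0.036) that kept its call in 10 of 24 alternative settings.

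**Figure D4:**
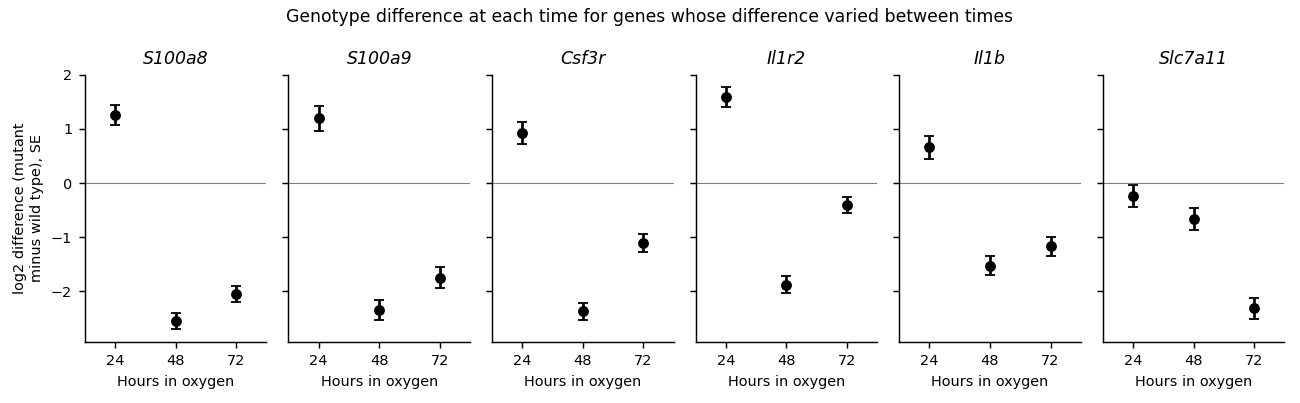
Genotype difference (y axis, log2, mutant minus wild type, bars are SE) at each time (x axis, hours in oxygen) for 6 genes whose difference varied between times. S100a8, S100a9, Csf3r, Il1r2 and Il1b are above 0 at 24 h and below 0 at 48 and 72 h, and Slc7a11 is lowest at 72 h.

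Genes near Nfe2l2 on chromosome 2 held a larger share of stable differences than genes elsewhere, by the positions of GRCm38.p6. Of 160 tested genes within 20 Mb, other than Nfe2l2, 6 were stable by their brightest probe set (3.75%), as were 5 of 83 within 10 Mb and 3 of 42 within 5 Mb. On the rest of the chromosome limma called 0 of 790 genes by their brightest probe set, with 80 at an unadjusted p under 0.05, and on other chromosomes 126 of 11265 were stable (1.12%). At that unadjusted p there were 31 of the 160 genes within 20 Mb and 1294 of the 11265 on other chromosomes. The stable share of single chromosomes ranged from 0 to 2.34%. By any probe set 7 genes were stable within 20 Mb, 2 on the rest of the chromosome (Col5a1 and Spred1, named after their values were seen) and 155 on other chromosomes. Nothing in the sources used here says how alike the strains of both genotypes are around the locus, so a difference through the mutation and one through linked sequence cannot be told apart.

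Cwc22, a splicing factor gene near Nfe2l2, had the second largest fall of all. Its type C probe set 130734_at gave 46.4, 73.2, 77.8, 41.6, 318 and 136 in the mutant and 2550, 1640, 2479, 2264, 2819 and 2762 in wild type (-3.62 ± 0.19, limma adjusted p = 2.6e-06). Of these mutant values only 318 exceeded the type C filter of 204, so the probe set passed through its wild type arrays. The type A probe set of Cwc22 gave 112 to 225 and 410 to 913 (-1.47 ± 0.12, limma adjusted p = 9.7e-05), and another, dim probe set gave -0.35 without a call. Fam171b, a membrane protein gene, gave 441 to 756 and 1446 to 1993 (-1.35 ± 0.12, limma adjusted p = 0.00011), and Itga4 and the apelin receptor Aplnr (-0.64 ± 0.13, limma adjusted p = 0.044) were lower too. The sodium channel genes Scn3a (0.87 ± 0.18, limma adjusted p = 0.035) and Scn7a (0.75 ± 0.13, limma adjusted p = 0.021), and Hat1, lay on the other side of Nfe2l2 and were higher in the mutant. Scn7a was not stable by its brightest probe set. A bright Scn7a probe set, with means of 11180 and 8886, gave 0.31 and another gave 0.34, neither of them called. Among these neighbours Aplnr kept its call in 6 of 24 alternative settings, Itga4 in 11 of 24, Scn3a in 7 of 23 and Scn7a in 13 of 23.

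**Figure D5:**
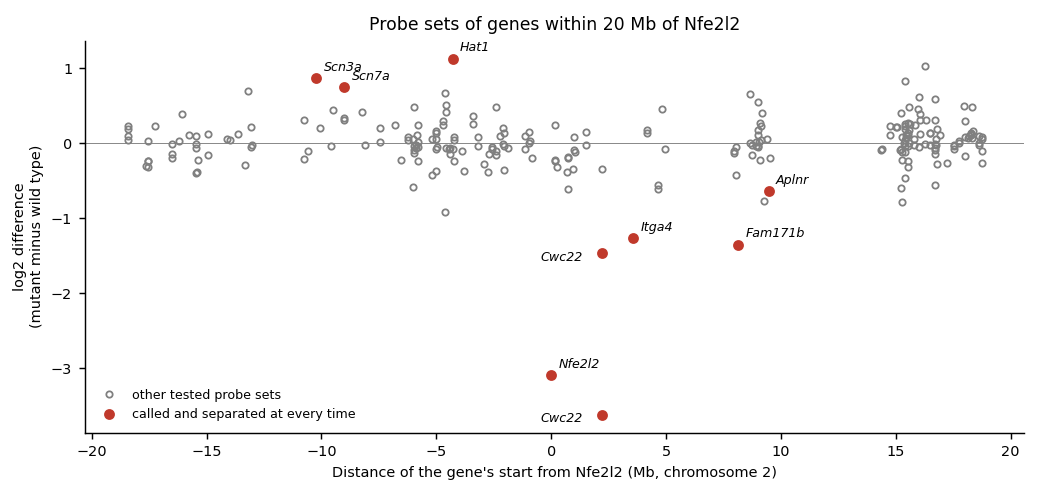
Difference over the 3 times (y axis, log2, mutant minus wild type) of the probe sets of genes within 20 Mb of Nfe2l2, by the distance of the gene's start (x axis, Mb). Stable probe sets are filled and named; Cwc22 has 2 of them, at -3.62 and -1.47.

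Calls were checked against other probe sets of the same genes. For 73 stable genes, 121 other probe sets were tested, of which 97 had the same sign, 11 were called the same way by limma and 0 were called the opposite way, with 3 of the opposite sign at an unadjusted p under 0.05. Of 69 on another array type, where other hybridisations were used, 54 had the same sign. Such agreement among genes that were not chosen was not counted. The titles of the array types carry the same numbers, so these hybridisations may share RNA. Under all 24 alternative settings, or all 23 in which they were tested, Nfe2l2, Xaf1, both Cwc22 probe sets, Ces1f, Gpx2, Aox1, Aox3, Osgin1, Gsta3, Marco, Scgb1c1, Fam171b, Aldh1a7, Ces1d, Ces1e and Rprml kept an adjusted p under 0.05. These are 17 of the 65 called probe sets named by rule, and all 65 kept their sign. Rprml was the one rise among these 17. Over all probe sets, 28 were stable in every setting other than the stricter filter, 23 lower and 5 higher. The other 4 higher ones, listed here after their values were seen, were Ube2b (0.76), Clec3b (1.08), Cdc42bpb (1.13) and 102234_at.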

How the data were processed

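The deposited values are intensity values, 1 per probe set and array, on a linear scale per the file headers and the values; the sources used here name neither the tool that made them nor a genome build. Each oxygen array had a 2%-trimmed mean between 800.2 and 800.5, so the authors' scaling was kept. Control probe sets were left out. Gene symbols came from the platform annotation: of 22975 tested probe sets 19081 had 1 symbol, 469 several and 3425 none, and 19030 matched RefSeq by gene ID.

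Each array type was fitted in R 4.3.3 with limma 3.58.1 (lmFit and eBayes, time and genotype as terms), with two-sided p-values adjusted by Benjamini-Hochberg over all types at 0.05; the F test added a genotype difference per time. No batch or scan date was given. Tested on simulated arrays with 22975 probe sets, the genotype fit called 80.7% of those changed by 1 on the log2 scale, 99% of those changed by 2, and 0.121% of those unchanged. The simulated noise was normal and independent between arrays, without a genotype by time effect or a deviation shared by same-numbered arrays. The rates hold for that noise only.

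Named genes were Nfe2l2, the 15 largest stable falls and rises, up to 4 genes of smallest p in each of 33 lists, the 6 smallest F test p-values, stable genes within 20 Mb of Nfe2l2, and chosen NRF2, stress and cell genes. The lists are described by counts and medians. Members and lists were chosen with earlier results of these data known. Alternatives changed the added value, normalization, filter, adjustment, weighting, blocking and variance model, and left out each sample and time.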

Additional observations from a re-analysis of the deposited data

Results flagged for a closer look

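For 9 named probe sets the genotype difference varied between the 3 times by the F test of the interaction. The adjusted p was 0.000804 for S100a8, 0.00241 for Il1r2, 0.00348 for both probe sets of Csf3r, 0.00362 for Fam172a and 0.00366 for S100a9. It was 0.0255 for Slc7a11, 0.0279 for Il1b and 0.0407 for Itga4. Fam172a went the other way from the neutrophil genes, with differences of -1.05, 1.52 and -0.45 at 24, 48 and 72 h. Il1b gave 0.66, -1.53 and -1.17. The groups hold at most 2 arrays of a type, so single arrays were not tested for standing apart.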

How the results depend on the processing

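All 65 called probe sets named by rule kept their sign in every setting in which they were tested, and none reversed. Of 211 called and 198 stable probe sets, equal weights per time gave 332 called, and 76 and 43 were called, and the same 76 and 43 separated, without 48 h and without 72 h. With a time left out, separation covered only the times that remained. Leaving out 1 sample gave 105 to 251 called, 105 to 249 stable and 12 to 37 called by the F test, against 54. The F test called 29 without the filter and 96 with a variance trend and robust fit. The numbers 1a and 1b pair the samples only by name: deviations of same-numbered arrays correlated at -0.02 to 0.38, above 0 in 7 of 8 pairs and above 0.1 in 5. With the replicate block, 107 were called, 98 were stable and 1 was called by the F test, and of the 65 named probe sets 41 stayed called. With it the quinone, carbonyl and aldehyde list had 4 members called lower in place of 7, and the matrix list 3 called higher in place of 5. The share of higher calls and the median of all probe sets moved little under quantile normalization (97 higher and 109 lower; -0.00074 against -0.0087). Within 5 Mb of Nfe2l2 3 genes were stable against 6 within 20 Mb. Fewer arrays lie behind each setting that leaves out a sample or time, and the cause of the other changes was not tested. Precision is limited by the number of arrays, and dim probe sets such as those of Nqo1 depend on the filter.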
